A study of Mus musculus with 1104 samples.

Results

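Messenger RNA in the epididymal white fat of male mice was compared between the first day on a high-fat diet and the day on which that diet began. The comparison covers all genes expressed in 12 of the 1104 libraries of the series, 6 libraries after 1 day and 6 at 0 days, chosen by their labels alone. The mice of the 1-day group were wild-type C57BL/6 males that had eaten a purified diet with 60 kcal% fat for 1 day, starting at 8 weeks of age. The mice of the 0-day group were males of the same strain, genotype and age at the onset of the diet. In the series 13 organs were followed for up to 20 weeks with 6 mice per time point, housed with up to 6 in a cage, and no group kept off the diet was analysed here. Diet, 1 day of age and the day of dissection therefore cannot be told apart, and the hour of dissection and of the last meal was not known. If the mice of a group shared a cage, cage cannot be told apart from these either. Epididymal fat is a pad beside the epididymis and testis, and each library holds RNA of the whole tissue sample, so that fewer cells of a type and less RNA per cell cannot be told apart.

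White fat stores fatty acids as triglyceride in adipocytes. After a meal insulin favours the uptake of glucose and lipid, the synthesis of fatty acids and their esterification, whereas fasting and catecholamines favour lipolysis, the release of those fatty acids. The synthesis of fatty acids and of cholesterol is driven by the SREBP transcription factors, which the protein INSIG1 holds back in the endoplasmic reticulum, and by ChREBP, a factor that senses sugar. Expansion of the pad on a fatty diet is known to raise leptin and the imprinted gene Mest, and over weeks to draw in macrophages.

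Of 15225 genes tested, 2895 were called at an adjusted p under 0.05, which is 19.0% of them, and 1637 were higher (10.8%) and 1258 lower (8.26%) after 1 day than at 0 days. Values are from edgeR's quasi-likelihood test with Benjamini-Hochberg adjustment over all genes tested, and genes that passed it are said to have risen or fallen. A change is a log2 fold change of 1 day over 0 days ± standard error with n = 6 mice in each group. Levels are in CPM, counts per 1000000 counts of a library with its total scaled by TMM factors, and are given as the lowest, the median and the highest of the 6 mice. The median change over all genes tested was -0.02 on the log2 scale, and 678 of the called genes differed by at least 2-fold, 241 upwards and 437 downwards. For 1227 genes the levels of the 12 mice did not overlap between the groups, higher after 1 day for 886 (5.82% of those tested) and lower for 341 (2.24%). The 12 libraries held between 14291611 and 17084405 counts.

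Some libraries stood apart, and their values are given with the results they touch. The library of 0-day replicate 1 had a median Spearman correlation of 0.952 with the other 0-day libraries and 0.972 with the 1-day libraries, whereas each of the other 11 was closer to its own group. Whether this library was mislabelled or mixed with another was not tested. It held liver transcripts, with a summed level of 2647 CPM for the liver genes listed, against 27.8 to 36.3 CPM in the other 0-day libraries and 21.2 to 39.2 CPM after 1 day. It was also the 0-day library closest to the 1-day group for many genes: it had the highest 0-day level for 902 of the 1637 genes that rose (55.1%) and the lowest for 710 of the 1258 that fell (56.4%). At the other end of the 0-day group, replicate 3 had the lowest level for 704 of the genes that rose (43.0%). After 1 day, replicate 2 held transcripts of exocrine pancreas and replicate 4 those of male duct, smooth muscle and testis. Without 0-day replicate 1 and 1-day replicates 2 and 4, 1113 genes were higher and 676 lower, and 1695 of these were among the calls of all 12 libraries. Markers of adipocytes were present in every library, with summed levels of 50230 to 69230 CPM after 1 day and 51150 to 72700 CPM at 0 days.

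Genes that make fatty acids and triglyceride rose together. Of 25 such genes tested 16 rose and 0 fell, with a median log2 change of 0.90, and 16 rose without the 3 libraries named above. Fatty acid synthase, encoded by Fasn (chr11:120805846-120824547 on GRCm38), stood at 4288, 7506 and 10770 CPM after 1 day, against 901, 1460 and 4149 CPM at 0 days. No mouse of the 0-day group reached the lowest 1-day mouse, and the highest 0-day level was that of replicate 1. The change was 1.92 ± 0.32 (adjusted p = 4.31e-06). Acly, which splits exported citrate into the acetyl-CoA used for synthesis, stood at 476, 752 and 1319 CPM after 1 day, against 171, 228 and 379 CPM at 0 days, again without overlap, and rose by 1.69 ± 0.23. Acss2 makes acetyl-CoA from acetate and stood at 172, 235 and 488 CPM after 1 day, against 61.3, 65.1 and 125 CPM at 0 days. Its change was 1.86 ± 0.21, and Slc25a1, the carrier that brings citrate out of the mitochondrion, rose by 1.11 ± 0.18 with 0-day replicate 1 inside the 1-day range. Acaca, whose product forms malonyl-CoA, rose by 1.24 ± 0.25, and the elongase gene Elovl6 by 1.45 ± 0.32. The desaturases Scd1, at 16250, 22080 and 28670 CPM after 1 day, against 8646, 11760 and 14030 CPM at 0 days, and Scd2, at 435, 568 and 761 CPM after 1 day, against 112, 177 and 206 CPM at 0 days, changed by 0.90 ± 0.21 and 1.82 ± 0.28, and both groups were separate for each.

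Some genes of triglyceride assembly rose as well. Gpd1, which supplies the glycerol backbone, is not among the 25 genes above and was named after its values were seen. It stood at 1238, 1849 and 2267 CPM after 1 day, against 514, 576 and 961 CPM at 0 days and rose by 1.46 ± 0.16. Agpat2 adds the second fatty acid to that backbone and stood at 736, 1258 and 1500 CPM after 1 day, against 254, 351 and 489 CPM at 0 days, a rise of 1.69 ± 0.24 without overlap. Dgat2 catalyses the last step of triglyceride synthesis. It stood at 2289, 3449 and 4346 CPM after 1 day, against 799, 931 and 1503 CPM at 0 days, and rose by 1.80 ± 0.23 (adjusted p = 3.52e-09). Mogat2, which esterifies monoacylglycerol, was low in all mice but separate, at 6.503, 7.66 and 15.7 CPM after 1 day, against 0.703, 1.18 and 1.801 CPM at 0 days, with a change of 2.99 ± 0.50. It was named for the size of its rise and is not among the 25 genes either. Other genes of the pathway did not pass the test, among them Dgat1 (-0.11 ± 0.14, adjusted p = 0.627), Gpam (-0.28 ± 0.15, adjusted p = 0.184) and Fads2. The genes of the factors had smaller differences. Mlxipl, which encodes ChREBP, rose by 0.61 ± 0.20, a call lost on leaving out 1-day replicate 5 or 0-day replicate 3 or 5. Srebf1 had a log2 difference of 0.36 ± 0.15 with an adjusted p of 0.0687, or 0.0417 without the 3 libraries. Thrsp, a lipogenic gene induced by carbohydrate, rose by 0.98 ± 0.28, a call lost without the 3 libraries (adjusted p = 0.101), and Pnpla3 rose by 0.72 ± 0.18.

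**Figure D1:**
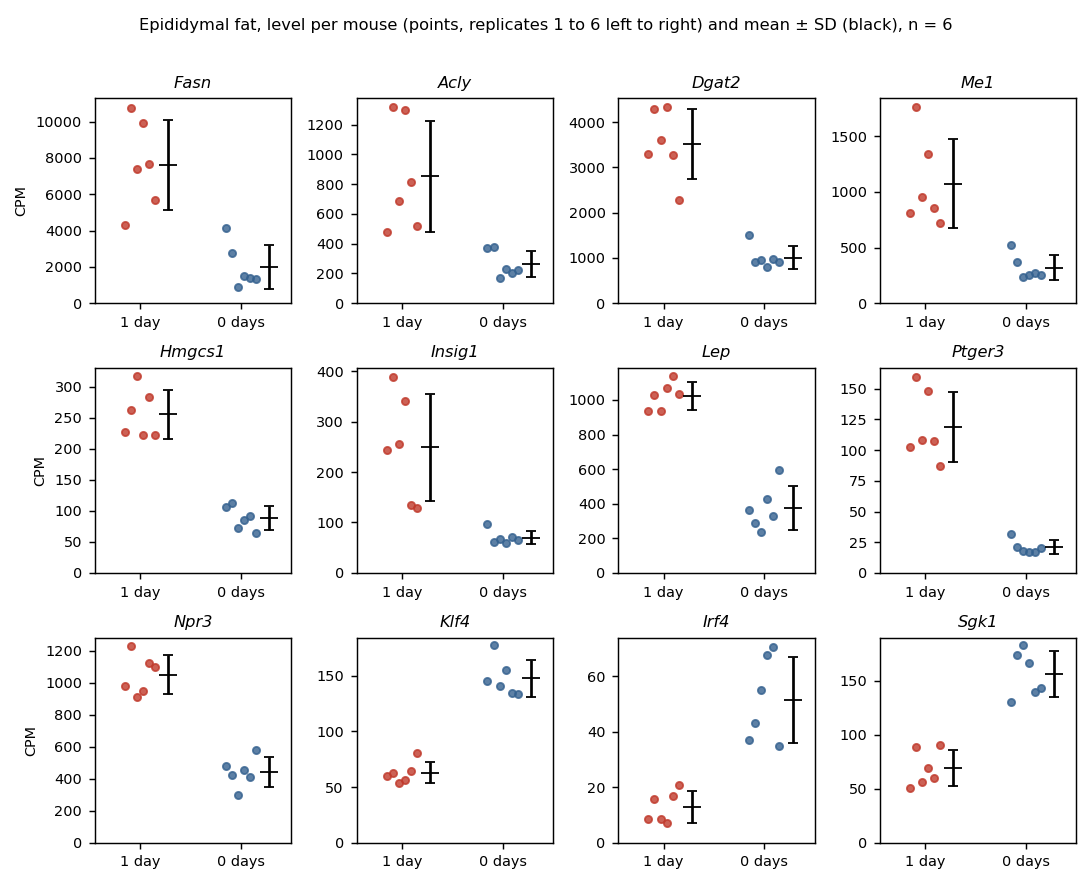
Level in CPM (vertical axis, from 0) of 12 genes in each epididymal fat library after 1 day (red, left) and at 0 days (blue, right), with mean ± SD in black (n = 6 mice per group). For Fasn the 1-day mice lie between 4288 and 10770 CPM and the 0-day mice between 901 and 4149 CPM, and the groups are likewise separate in the other 11 panels, downwards for Klf4, Irf4 and Sgk1.

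Genes of sterol synthesis rose as a group as well. Of 25 genes of cholesterol synthesis and SREBP2 targets, 19 rose and 0 fell, with a median of 0.90, and 14 rose without the 3 libraries. Hmgcs1 makes the precursor HMG-CoA in the cytosol (chr13:119690379-119708260) and stood at 222, 244 and 317 CPM after 1 day, against 64.6, 88.8 and 113 CPM at 0 days. Every 1-day mouse was above every 0-day mouse, and the change was 1.52 ± 0.18 (adjusted p = 2.2e-10). Insig1, the brake on SREBP, stood at 128, 249.9 and 389 CPM after 1 day, against 60.2, 66.1 and 96.2 CPM at 0 days and rose by 1.83 ± 0.24. Sc5d, an enzyme late in the pathway, stood at 137, 195 and 247 CPM after 1 day, against 67.2, 69.8 and 88.2 CPM at 0 days, a rise of 1.42 ± 0.14 that was among the most certain of all genes (adjusted p = 2.31e-13). Lss, which closes the sterol rings, rose by 1.45 ± 0.18, Idi1 of the isoprenoid steps by 1.34 ± 0.16, Dhcr7 by 1.45 ± 0.24 and Acat2 by 0.91 ± 0.13. Srebf2 itself (-0.13 ± 0.13) did not pass. Fdps, at up to 1.44 CPM, has near-identical copies in the genome and its rise is uncertain (adjusted p = 0.357 without the 3 libraries).

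Promoter sequences show a feature that many of these genes share. The 300 bases from 250 before to 50 after the first listed start of each gene were used (RefSeq, GRCm38.p6). In them the letters CCAAT were searched on both strands, because the CCAAT box binds NF-Y, a factor that works beside SREBP. They were found in 13 of the 15 sterol genes that rose and have a promoter in the set (86.7%), in 7 of 13 genes of fatty acid and triglyceride synthesis that rose (53.8%), and in 37.9% of all 27025 promoters. The sterol regulatory element, spelled TCACNCCAC and also searched on both strands, was found in 1 of 15 and 1 of 13, against 1.22% of all promoters. A match describes the letters and is neither a measured binding site nor a cause. The promoters of 3 sterol genes and of Fasn are printed 5′ to 3′ on the strand of the gene, with matches to either motif in capitals, to show where they lie.
Hmgcs1 promoter, chr13:119690101-119690400, plus strand: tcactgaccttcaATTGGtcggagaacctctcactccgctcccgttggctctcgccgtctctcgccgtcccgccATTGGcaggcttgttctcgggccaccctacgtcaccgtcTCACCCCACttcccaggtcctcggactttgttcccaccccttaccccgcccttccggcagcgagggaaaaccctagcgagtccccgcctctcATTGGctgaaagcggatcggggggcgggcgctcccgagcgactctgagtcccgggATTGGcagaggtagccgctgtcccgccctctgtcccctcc
Insig1 promoter, chr5:28071162-28071461, plus strand: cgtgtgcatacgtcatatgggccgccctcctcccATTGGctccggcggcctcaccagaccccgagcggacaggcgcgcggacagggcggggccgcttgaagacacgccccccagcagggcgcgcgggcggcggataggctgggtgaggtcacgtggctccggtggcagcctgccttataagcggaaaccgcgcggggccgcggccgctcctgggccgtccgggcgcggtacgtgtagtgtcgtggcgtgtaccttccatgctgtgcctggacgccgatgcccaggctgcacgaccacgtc
Sc5d promoter, chr9:42264251-42264550, minus strand: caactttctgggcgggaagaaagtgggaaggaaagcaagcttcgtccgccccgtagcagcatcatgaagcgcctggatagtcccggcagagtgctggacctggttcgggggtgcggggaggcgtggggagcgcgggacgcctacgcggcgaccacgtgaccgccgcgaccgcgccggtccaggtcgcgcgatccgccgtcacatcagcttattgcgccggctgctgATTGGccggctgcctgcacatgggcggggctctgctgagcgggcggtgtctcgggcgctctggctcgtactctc
Fasn promoter, chr11:120824498-120824797, minus strand: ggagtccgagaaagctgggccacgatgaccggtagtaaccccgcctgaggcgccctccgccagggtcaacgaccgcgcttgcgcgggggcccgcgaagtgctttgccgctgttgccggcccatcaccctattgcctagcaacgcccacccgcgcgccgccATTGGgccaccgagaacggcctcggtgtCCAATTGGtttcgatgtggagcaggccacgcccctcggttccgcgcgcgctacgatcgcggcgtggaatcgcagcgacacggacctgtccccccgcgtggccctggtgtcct
Hmgcs1 holds 4 CCAAT matches and 1 sterol regulatory element, whose letters do not overlap those matches, Insig1 and Sc5d hold 1 CCAAT match each, and Fasn holds 3, of which 2 overlap in a palindrome.

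Enzymes that supply carbon and reducing power for synthesis rose too. Me1, which makes NADPH from malate, stood at 721, 904 and 1761 CPM after 1 day, against 239, 265 and 523 CPM at 0 days and rose by 1.75 ± 0.18 (adjusted p = 1.52e-12). Pgd of the pentose phosphate pathway stood at 606, 714 and 892 CPM after 1 day, against 279, 292 and 360.2 CPM at 0 days, a rise of 1.29 ± 0.13, and G6pdx, the entry enzyme of that pathway, rose by 0.69 ± 0.12. Idh1, the cytosolic isocitrate dehydrogenase, rose by 0.95 ± 0.11. In a list put together after these values were seen, 6 of 9 genes for NADPH and pentose phosphates rose. Another such list held pyruvate entry, the citrate cycle and citrate export, and 20 of its 26 genes rose and 1 fell, with a median of 0.63. Me1, Pgd and G6pdx of the NADPH list and Slc25a1 of the pyruvate list were already counted among the fatty acid and triglyceride genes. Dlat, a subunit of pyruvate dehydrogenase, stood at 175, 199 and 268 CPM after 1 day, against 91.4, 106 and 137 CPM at 0 days, and Cs, citrate synthase, at 650.4, 728 and 951 CPM after 1 day, against 351, 413 and 598 CPM at 0 days. Both were separate between the groups, with rises of 0.93 ± 0.11 and 0.78 ± 0.10, and 0-day replicate 1 was the highest of its group for both. Idh3a of the citrate cycle rose by 1.02 ± 0.14 and the dicarboxylate carrier Slc25a10 by 1.20 ± 0.18. The gene that fell on this list was Pdp1, a phosphatase that activates pyruvate dehydrogenase (-0.31 ± 0.11). Without the 3 libraries 16 rose and 0 fell, and Pdp1 had an adjusted p of 0.0847. That call was also lost on leaving out any of 1-day replicates 1, 2, 3, 4 and 6 or 0-day replicates 3, 4 and 5.

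Glycogen genes rose in part, with the highest changes in genes of low level. Gys2, the glycogen synthase known from liver, stood at 12.1, 15.2 and 32.04 CPM after 1 day, against 1.7, 2.04 and 8.45 CPM at 0 days, and the lone high 0-day value was that of replicate 1. Its change was 2.52 ± 0.38. Ppp1r3b, which brings a phosphatase to glycogen, stood at 9.51, 16.1 and 32.7 CPM after 1 day, against 2.403, 2.98 and 6.09 CPM at 0 days and rose by 2.23 ± 0.24, its relative Ppp1r3d rose by 1.41 ± 0.15, and the branching enzyme gene Gbe1 by 1.03 ± 0.12. In all 10 of 19 genes on this list, also put together after the values were seen, rose and 1 fell. Of 24 genes of glucose uptake, glycolysis and hypoxia 7 rose and 1 fell, and the risers were Pfkp (0.95 ± 0.11), Pfkl (0.69 ± 0.09), Aldoa, Tpi1, Pgk1, Pgam1 and Ldha (0.87 ± 0.16), all enzymes of glycolysis or lactate formation. The call of Pgk1 was lost without the 3 libraries (adjusted p = 0.0814). The faller was Slc2a1, the basal glucose transporter, at 18.8, 20.8 and 22.2 CPM after 1 day, against 20.5, 30.7 and 32.5 CPM at 0 days (-0.49 ± 0.13). Slc2a4, the transporter that insulin recruits, had a log2 difference of 0.44 ± 0.20 and did not pass (adjusted p = 0.108). Of 21 genes of insulin signalling and its feedback only Akt2 rose (0.48 ± 0.10) and only Ddit4 fell (-0.89 ± 0.32), a call lost on leaving out any of 1-day replicates 1, 3 and 5 or 0-day replicates 3, 4 and 6.

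Some genes that burn fat rose at the same time. Of 30 genes of fatty acid oxidation and PPAR targets, 14 rose and 3 fell, with a median of 0.39. Cpt1a, which admits fatty acids to mitochondria, stood at 128, 153 and 182 CPM after 1 day, against 94.03, 101 and 108 CPM at 0 days and rose by 0.60 ± 0.12. Hadha, of the trifunctional protein, stood at 318, 329 and 405 CPM after 1 day, against 219, 239 and 300.2 CPM at 0 days and rose by 0.49 ± 0.08, and Etfdh, which passes electrons on, rose by 0.55 ± 0.10. Cpt2 rose by 0.56 ± 0.11 and Acadm by 0.51 ± 0.11. Among those that fell were Vnn1 (-1.66 ± 0.36) and Acot1 (-1.48 ± 0.45), whose lowest level of the 12 mice, 1.49 CPM, was that of 0-day replicate 1. The call of Acot1 was lost without 0-day replicate 3. Fgf21, a hormone gene, was among the risers with at most 0.3197 CPM, and was not called without the 3 libraries (adjusted p = 0.136) or on leaving out 1-day replicate 1 or 2 or 0-day replicate 2 or 4. Of 32 nuclear genes of the respiratory chain 9 rose and 0 fell, with a median of 0.34, led by Cycs, cytochrome c (0.95 ± 0.24), and Ndufs1 of complex I (0.68 ± 0.09), and 4 rose without the 3 libraries. Of 12 genes of mitochondrial DNA 1 rose, mt-Nd4l, with 43.8 CPM in 1-day replicate 1 and 1.15 to 6.78 CPM in the other 11 mice, and it was not called without that library.

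Leptin and several other genes of fat expansion rose within the day. Lep, the hormone that reports fat stores (chr6:29060220-29073877), stood at 934, 1032 and 1138 CPM after 1 day, against 237, 348 and 597 CPM at 0 days. The 1-day mice lay within a narrow range above all 0-day mice, and the change was 1.45 ± 0.28 (adjusted p = 5.46e-05). Npr3, the receptor that clears natriuretic peptides, stood at 914, 1038 and 1233 CPM after 1 day, against 296, 439 and 577 CPM at 0 days and rose by 1.25 ± 0.19. Mest, a marker of expanding adipocytes, stood at 212, 288 and 388 CPM after 1 day, against 66.9, 96.05 and 109 CPM at 0 days, a rise of 1.68 ± 0.36, and Trp53inp2 rose by 1.41 ± 0.23 and Bmp3 by 1.32 ± 0.28. In all 5 of 12 genes on this list rose and 1 fell, the imprinted gene Nnat, at 213, 663 and 1225 CPM after 1 day, against 1313, 1933 and 2161 CPM at 0 days (-1.42 ± 0.34). Without the 3 libraries 6 rose and 0 fell, and Nnat had an adjusted p of 0.0563. Sfrp5, another gene tied to expansion, stood at 3.197, 5.28 and 9.45 CPM after 1 day, against 4.72, 6.87 and 12.6 CPM at 0 days and did not pass (adjusted p = 0.469). Beside 19.0% of all genes tested that were called, 4 of 23 adipocyte genes rose and 0 fell, with a median of 0.07. Besides Lep these were the lipoprotein lipase gene Lpl (0.54 ± 0.14), Mgll, which cleaves monoacylglycerol (0.71 ± 0.13), and the fatty acid carrier Cd36 (0.41 ± 0.09). Adiponectin, Adipoq, stood at 1564, 2257 and 3354 CPM after 1 day, against 2293, 2921 and 3475 CPM at 0 days with a log2 difference of -0.31 ± 0.22 (adjusted p = 0.34). The lipase Pnpla2 and the adrenergic receptor Adrb3 had log2 differences of -0.44 ± 0.17 and -0.51 ± 0.34, and neither passed.

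Ptger3 had the smallest p of all genes. It encodes the EP3 receptor for prostaglandin E2, which lowers cyclic AMP, the signal that drives lipolysis, in adipocytes (chr3:157566892-157645888). It stood at 86.9, 108 and 159 CPM after 1 day, against 16.8, 19.1 and 32.1 CPM at 0 days, with no overlap and with 0-day replicate 1 the highest of its group. The rise was 2.51 ± 0.20 (adjusted p = 1.55e-16). Prkaca, the catalytic subunit of the kinase that cyclic AMP activates, rose by 0.81 ± 0.08. Named after their values were seen, Adora1, an adenosine receptor that also lowers cyclic AMP, rose by 1.03 ± 0.14, Ptges, which makes prostaglandin E2, by 1.34 ± 0.28 and Angptl8, a lipoprotein lipase regulator induced by feeding, by 1.9 ± 0.33. Other sure risers had less known roles in fat. Paqr9, a membrane receptor of the adiponectin receptor family, stood at 57.6, 91.7 and 129.7 CPM after 1 day, against 7.13, 10.99 and 16.5 CPM at 0 days (2.99 ± 0.28). Lrrc59 of the endoplasmic reticulum stood at 238, 294 and 400.3 CPM after 1 day, against 133, 139 and 168 CPM at 0 days (1.10 ± 0.10), and Tlcd2, a membrane protein, at 50.3, 69.97 and 105 CPM after 1 day, against 10.5, 12.8 and 16.6 CPM at 0 days (2.45 ± 0.24). The ubiquitin ligase gene Trim67 rose by 2.13 ± 0.21, Kmt5a, which methylates histone H4, by 1.36 ± 0.14, the deubiquitinase Usp5 by 0.66 ± 0.07 and the phosphatase subunit Ppp2r5a by 1.15 ± 0.12. Ncan, which encodes the proteoglycan neurocan, rose by 2.77 ± 0.37 at a low level.

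**Figure D2:**
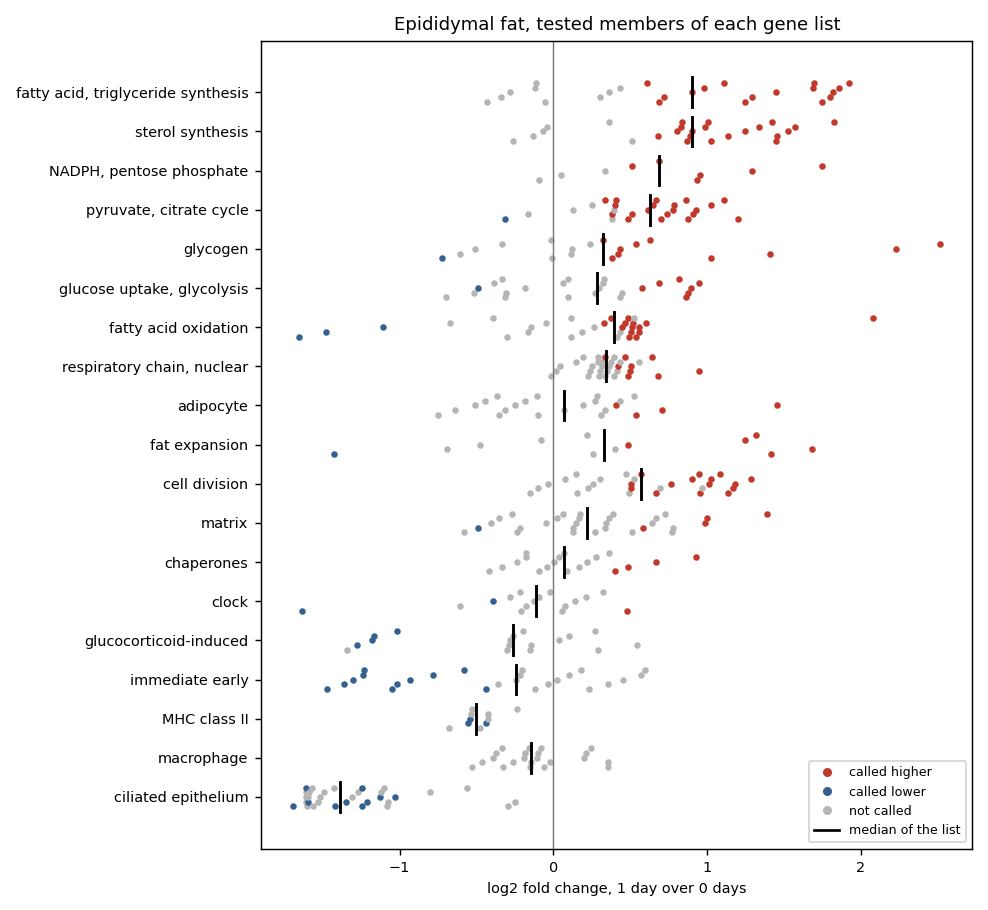
Log2 fold change of 1 day over 0 days (horizontal axis) for each tested member of 19 gene lists, coloured by call, with the median of each list as a black bar. The medians of fatty acid and triglyceride synthesis (0.90) and of sterol synthesis (0.90) lie furthest to the right, and that of the ciliated epithelium genes (-1.39) furthest to the left.

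Many cell division genes rose. Of 29 tested 15 rose and 0 fell, with a median of 0.57, and 7 rose without the 3 libraries. Ccne1, the cyclin that starts DNA replication, stood at 6.36, 7.496 and 8.82 CPM after 1 day, against 2.702, 3.201 and 4.27 CPM at 0 days and rose by 1.18 ± 0.22 without overlap. Mki67, a marker of dividing cells, stood at 9.07, 16.1 and 24.3 CPM after 1 day, against 5.96, 8.17 and 10.8 CPM at 0 days, and Top2a, which untangles DNA, at 8.09, 14.8 and 23.6 CPM after 1 day, against 4.54, 6.35 and 10.5 CPM at 0 days. The groups overlapped for both, with rises of 1.01 ± 0.31 and 1.13 ± 0.29. Rrm2 of nucleotide synthesis rose by 0.95 ± 0.23 and Aurkb of mitosis by 1.02 ± 0.24. The type of the dividing cells was not measured. Tubulin genes, named after their values were seen, were higher as well: Tuba1a stood at 901, 1411 and 1763 CPM after 1 day, against 152, 199.9 and 256 CPM at 0 days, a rise of 2.73 ± 0.34, Tubb5 rose by 1.03 ± 0.16 and Tuba1b by 1.06 ± 0.22, although alpha-tubulin genes share reads. Matrix genes were called about as often as all genes tested, 5 of 30 against 19.0%. Of these 4 rose and 1 fell. Col15a1, a basement membrane collagen, stood at 695, 1212 and 1583 CPM after 1 day, against 192, 374 and 719.6 CPM at 0 days with 0-day replicate 1 within the 1-day range (1.39 ± 0.28). Loxl1, a cross-linking enzyme, rose by 0.59 ± 0.13 without overlap, and Dcn, decorin, fell without overlap (-0.49 ± 0.12). Chaperone genes were also called about as often as all genes tested, 4 of 19 against 19.0%. These 4 rose, among them Hspd1 (0.67 ± 0.11) and Hspa4 (0.49 ± 0.07), and of 24 endoplasmic reticulum stress genes only Edem1 rose (0.61 ± 0.09).

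Some immediate early genes and genes induced by glucocorticoids fell. Of 25 immediate early genes 0 rose and 11 fell, and 7 fell and 1 rose without the 3 libraries. Klf4, a transcription factor (chr4:55527143-55532466), stood at 53.5, 61.2 and 80.6 CPM after 1 day, against 133, 143 and 177 CPM at 0 days with no overlap and had the smallest p of all genes that fell (-1.23 ± 0.14, adjusted p = 4.63e-11). Its relative Klf2, prominent in endothelium, stood at 46.3, 53.8 and 68.4 CPM after 1 day, against 89.8, 139.9 and 176 CPM at 0 days (-1.24 ± 0.16). Ccn1, a secreted matrix protein, stood at 12.7, 24.1 and 32.03 CPM after 1 day, against 41.6, 51.8 and 94.5 CPM at 0 days (-1.36 ± 0.27), and Myc changed by -0.93 ± 0.18 and Nr4a1 by -1.47 ± 0.41, a call lost without the 3 libraries (adjusted p = 0.0579). Fos (-0.36 ± 0.52) and Egr1 (0.36 ± 0.44), the best known members, did not pass, and 0-day replicate 1 was the highest of its group for each. Of 17 genes induced by glucocorticoids 4 fell and 0 rose, beside 8.26% of all genes tested that fell and 19.0% that were called. Dusp1 is counted both here and among the immediate early genes. Sgk1, a kinase, stood at 50.6, 64.5 and 90.2 CPM after 1 day, against 130.5, 155 and 183 CPM at 0 days without overlap (-1.18 ± 0.18), and Errfi1, Dusp1 and Cebpd fell too. Fkbp5, a classic target of the hormone, had a log2 difference of 0.29 ± 0.28 and did not pass.

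Irf4, which in mouse adipocytes rises with fasting and favours lipolysis, fell. It stood at 6.95, 12.3 and 20.9 CPM after 1 day, against 34.7, 49.1 and 70.6 CPM at 0 days, with every 1-day mouse below every 0-day mouse, and changed by -1.99 ± 0.30 (adjusted p = 3.03e-07). Slc27a1, a fatty acid transporter named after its values were seen, stood at 337, 469 and 700.1 CPM after 1 day, against 777.1, 1014 and 1093 CPM at 0 days (-1.01 ± 0.18), and Txnip, which slows glucose uptake, changed by -0.76 ± 0.14. Dpyd of pyrimidine breakdown (-1.04 ± 0.14) and the detoxifying genes Ephx1 (-0.79 ± 0.12) and Gstt2 (-0.98 ± 0.15) were also among the surest fallers. Prtn3, a serine protease of neutrophil granules, stood at 1.31, 3.23 and 11.4 CPM after 1 day, against 23.6, 26.8 and 44.7 CPM at 0 days without overlap (-2.69 ± 0.42). Core clock genes were called about as often as all genes tested, 3 of 16 against 19.0%. Of 16 core clock genes 1 rose, Clock (0.48 ± 0.11), and 2 fell, among them Cry1 (-0.39 ± 0.15), a call lost without the 3 libraries (adjusted p = 0.0629) and on leaving out any library but 1-day replicate 6 and 0-day replicates 1 and 2. Of 9 output genes Ciart fell (-1.23 ± 0.30), and Arntl (0.21 ± 0.22), Per1 (-0.28 ± 0.27) and Dbp (-0.26 ± 0.23) did not pass.

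Immune gene lists differed in their share of calls, beside 19.0% of all genes tested. A list of 26 interferon response genes had 2 higher and 3 lower. Of 22 macrophage genes edgeR called 0 higher and 0 lower, with 1 gene, Mpeg1, at an unadjusted p under 0.05, 0 called by DESeq2 and 3 by limma-voom. Itgax, which encodes CD11c of macrophages that gather in obese fat, stood at 5.34, 8.56 and 9.63 CPM after 1 day, against 5.39, 9.03 and 12.3 CPM at 0 days (-0.14 ± 0.31, adjusted p = 0.796). Ccl2, the chemokine that draws monocytes, stood at 4.16, 6.09 and 9.82 CPM after 1 day, against 1.88, 2.84 and 10.2 CPM at 0 days, with the highest 0-day value in replicate 1. Its difference of 0.69 ± 0.38 did not pass (adjusted p = 0.199), but was 1.39 with an adjusted p of 0.0189 without the 3 libraries. Of 10 MHC class II genes 3 fell by small amounts (H2-Ab1 -0.54 ± 0.17), and 0 did without those libraries. The neutrophil genes S100a8 and S100a9 were called lower with S100a9 at 0.491 to 2.53 CPM after 1 day, against 69.5 CPM in 0-day replicate 6 and at most 2.64 CPM in the other 0-day mice. Without 0-day replicate 6 neither was called, and the log2 difference of S100a8 turned to 0.67. The call of S100a8 was also lost without 1-day replicate 4, 5 or 6. Of 14 T cell genes and 11 B cell genes edgeR called 0, DESeq2 0 and limma-voom 0, with 2 T cell genes and 0 B cell genes at an unadjusted p under 0.05.

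Some transcripts of ciliated epithelium fell. Foxj1, the master factor of motile cilia, stood at 11.4, 25.6 and 63.8 CPM after 1 day, against 0.497, 106 and 155 CPM at 0 days. The 0-day group was split: replicate 1 had 0.497 CPM and the other 5 had 65.6 to 155 CPM, above every 1-day mouse. The change was -1.69 ± 0.60 with an adjusted p of 0.0375, and that call was lost (adjusted p of 0.0514 to 0.0961) on leaving out any of 1-day replicates 1, 2, 4, 5 and 6 or 0-day replicates 3, 4, 5 and 6, with folds from -2.08 to -1.50 over all 12 omissions, and it was lost without the 3 libraries (adjusted p = 0.0725). Fitted on the 12 libraries of 0 and 1 day alone, Foxj1 had an adjusted p of 0.101. Of 32 genes of cilia 10 fell and 0 rose, with a median of -1.39, and 5 fell without the 3 libraries. On leaving out 1 library the number that fell ran from 4 (without 1-day replicate 2 or 5 or 0-day replicate 3) to 23 (without 0-day replicate 1). It was 5 or 6 without 1-day replicate 4 or 6 or 0-day replicate 4, 5 or 6, and 16 without 1-day replicate 3. Summed over the list, ciliary transcripts came to 156 to 411 CPM after 1 day, against 132 CPM in 0-day replicate 1 and 485 to 882 CPM in the other 0-day mice. Dnah11, a dynein of cilia, stood at 5.31, 7.08 and 17.02 CPM after 1 day, against 1.92, 26.7 and 31.2 CPM at 0 days (-1.42 ± 0.38), and Hydin, of the axoneme, at 2.001, 5.43 and 14.6 CPM after 1 day, against 0.373, 21.9 and 29.1 CPM at 0 days (-1.60 ± 0.54). The call of Hydin was lost without the 3 libraries (adjusted p = 0.0543) and on leaving out 1-day replicate 2, 4 or 5 or 0-day replicate 3, 4 or 6. The epithelial genes Epcam (12.01, 26.6 and 48.9 CPM after 1 day, against 0.186, 66.4 and 122 CPM at 0 days) and Krt8 followed the same split and did not pass (adjusted p = 0.227 for Epcam).

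Transcripts of the epididymis itself overlapped between the groups. Lcn5, an epididymal lipocalin, had 0, 0, 0.998, 0.313, 0 and 0.4296 CPM in 1-day replicates 1 to 6, against 3.91, 0.0522, 0, 0, 0 and 0 CPM in 0-day replicates 1 to 6 (adjusted p = 0.645). The highest Lcn5 level was thus in the 0-day library with the lowest Foxj1 level. Of 28 epididymal genes edgeR called 0 higher and 0 lower, with 1 at an unadjusted p under 0.05, 1 called by DESeq2 and 3 by limma-voom. Their median log2 change was 1.9, with 20 of 28 above 0, and 1.15 without the 3 libraries. Their summed level ran from 51.2 to 1919 CPM after 1 day, the highest in replicate 4, and from 23.7 to 562 CPM at 0 days, the highest in replicate 2. The median of that sum was 103.5 CPM after 1 day, against 187 CPM at 0 days. Crisp1, a secreted protein of the epididymis, stood at 0.4296, 8.83 and 1605 CPM after 1 day, against 0.121, 0.3697 and 309 CPM at 0 days, and those same 2 libraries held its highest values. In 1-day replicate 4 the male duct gene Akr1b7 stood at 4059 CPM, the smooth muscle gene Actg2 at 362 CPM and the sperm protamine gene Prm1 at 32.8 CPM. Akr1b7, Ptgs2, Prm1, Tnp1, Tnp2 and Ldhc were called higher with all 12 libraries and were not called without the 3 libraries.

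Liver and pancreas genes were called, each with high levels in 1 library. In a list put together after the values were seen, 12 of 12 tested liver genes were called lower, with a median of -4.99, but albumin, Alb, had 7.39 to 16.4 CPM after 1 day, against 1328 CPM in 0-day replicate 1 and 4.905 to 14.6 CPM in the other 0-day mice. Without the 3 libraries 0 of these genes were called and the median was -0.36, and Ahsg, Hpx, Apoa2, Serpina1e and Mup3 were among the calls lost. The part of such carry-over in the other differences of this library was not tested. Ctrb1, a pancreatic protease, had 156 CPM in 1-day replicate 2 and at most 0.433 CPM in the other 11 libraries. All 4 pancreas genes tested were called higher, and 0 were called without the 3 libraries.

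**Figure D3:**
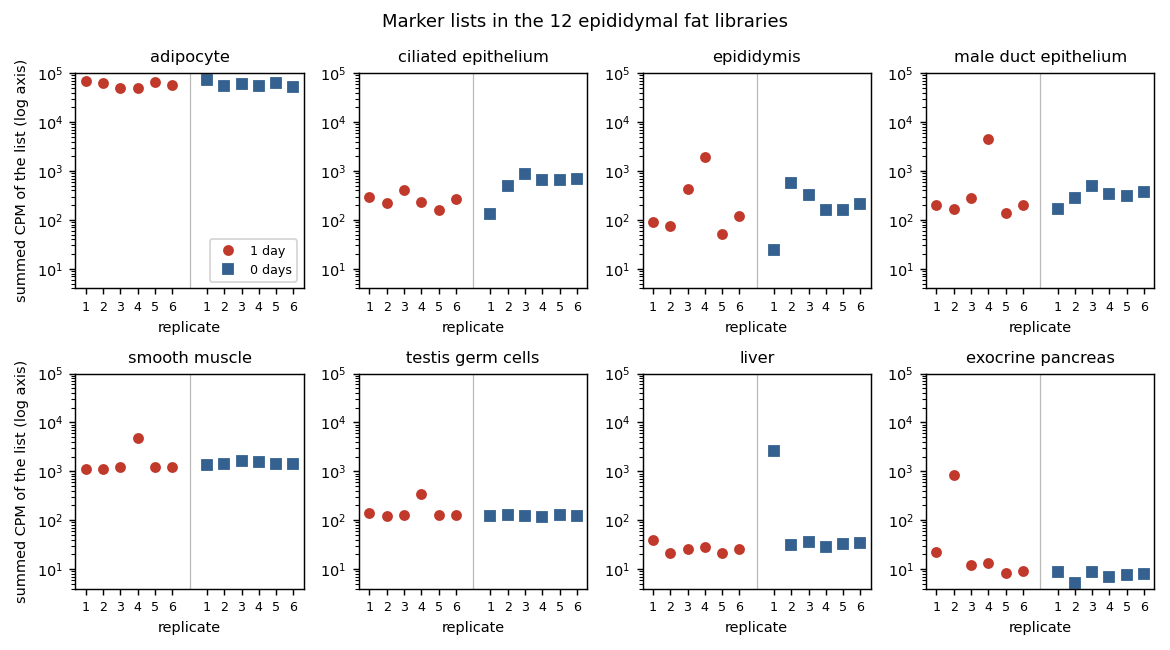
Summed level in CPM (log axis) of 8 marker lists in the 12 libraries, replicates 1 to 6 after 1 day (red circles, left) and at 0 days (blue squares, right). Adipocyte markers are level across libraries, ciliary transcripts lie between 485 and 882 CPM in 0-day replicates 2 to 6 and lower elsewhere, and single libraries hold liver (0-day replicate 1), pancreas (1-day replicate 2) and duct or testis transcripts (1-day replicate 4).

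Levels at later times place the first day in the course of the diet. Fasn averaged 2007 ± 1222 CPM at 0 days, 7609 ± 2462 CPM after 1 day, 5772 ± 1983 CPM after 3 days, 2740 ± 574 CPM after 1 week and 2198 ± 600 CPM after 12 weeks (mean ± SD, n = 6). Hmgcs1 averaged 88.9 ± 18.9 CPM at 0 days, 256 ± 39.2 CPM after 1 day, 309 ± 52.7 CPM after 3 days, 232 ± 42.3 CPM after 1 week and 424 ± 74.9 CPM after 12 weeks. The mean of Fasn was thus highest after 1 day among these 5 times, and that of Hmgcs1 after 12 weeks. Lep averaged 374 ± 127 CPM at 0 days, 1023 ± 78.7 CPM after 1 day, 1034 ± 240.2 CPM after 3 days, 1122 ± 272 CPM after 1 week and 3315 ± 888 CPM after 12 weeks. Klf4 averaged 148 ± 16.7 CPM at 0 days, 62.9 ± 9.56 CPM after 1 day, 76.1 ± 23.3 CPM after 3 days, 126 ± 14.9 CPM after 1 week and 77.9 ± 5.76 CPM after 12 weeks. Foxj1 averaged 94.8 ± 55.4 CPM at 0 days, 29.3 ± 18.7 CPM after 1 day, 12.2 ± 9.14 CPM after 3 days, 8.29 ± 6.64 CPM after 1 week and 5.92 ± 1.54 CPM after 12 weeks. Summed ciliary transcripts had a median of 645 CPM at 0 days, 248 CPM after 1 day and, at the later times, 138 CPM (8 weeks) to 231 CPM (2 weeks), and the highest mouse at 3 weeks reached 1550 CPM. All later times share the 0-day mice as their baseline, and no test was made between them here.

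**Figure D4:**
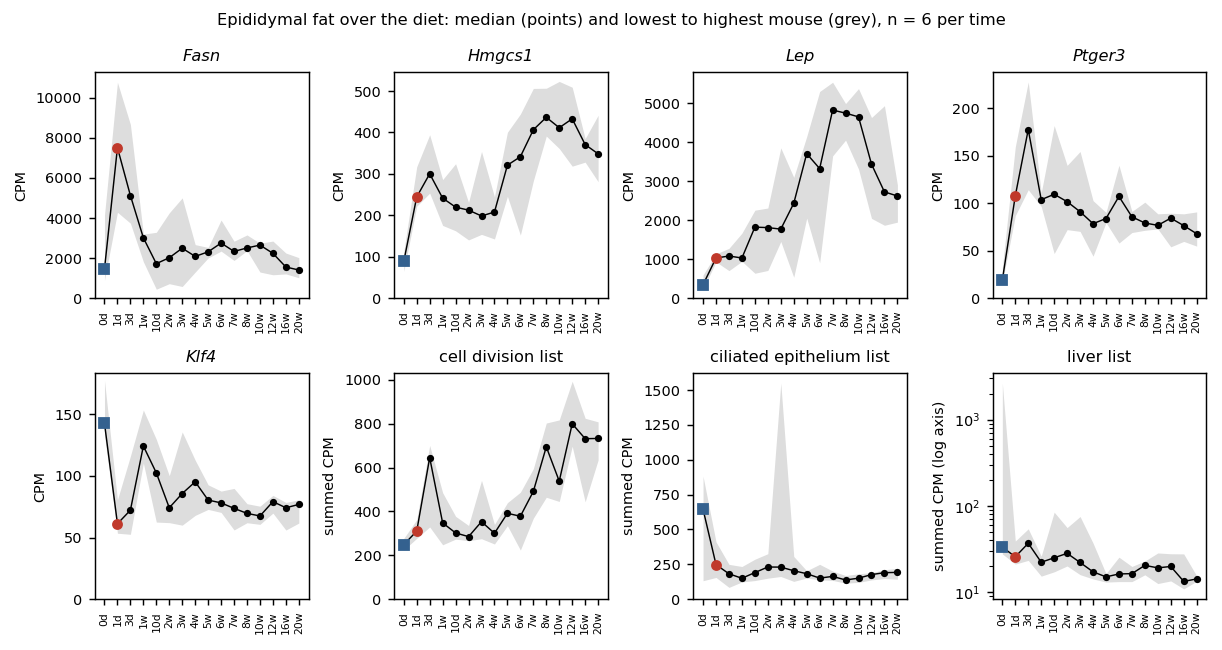
Median level (points) and range from the lowest to the highest mouse (grey) in epididymal fat at each time on the diet, equally spaced from 0 days to 20 weeks, for 5 genes in CPM and for 3 lists in summed CPM (the liver list on a log axis), n = 6 mice per time. Fasn, Hmgcs1, Lep and Ptger3 are higher at 1 day (red) than at 0 days (blue), Klf4 and the ciliated list are lower, and the 0-day range of the liver list reaches 2647 CPM through 1 mouse.

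Inguinal white fat, a depot under the skin, was measured over the same day and had fewer calls. In it 190 genes were higher and 26 lower after 1 day than at 0 days, and the change differed between epididymal and inguinal fat for 30 of 15667 genes (0.191%), more positive in epididymal fat for 9 (0.0574%) and more negative for 21 (0.134%). Fitted on the libraries of 0 and 1 day alone it was more positive for 31 and more negative for 7. In the joint fit of all time points, the median change of the 25 fatty acid and triglyceride genes was 0.89 in epididymal and 0.47 in inguinal fat. There edgeR called 0 of them different between depots, with 6 at an unadjusted p under 0.05. In inguinal fat itself 6 of them rose and 0 fell, and of 25 sterol genes 7 rose and 0 fell. A difference in Fasn of 1.28 ± 0.53 had an adjusted p of 0.458. Klf4 did differ: its change was -1.24 in epididymal and 0.01 in inguinal fat, a difference of -1.25 ± 0.22 (adjusted p = 0.000461). Ccne1 differed by 1.38 ± 0.31, Adap1, a signalling adaptor, by 1.38 ± 0.28, the RNA polymerase subunit gene Polr3g by 0.93 ± 0.20, the cell death gene Bbc3 by 1.18 ± 0.26 and Tm4sf5 by 3.28 ± 0.76. Hydin, which rose in inguinal fat by 2.58, differed by -4.18 ± 0.73. The liver genes Alb, Mup3 and Serpina1c also differed, and Alb and Mup3 turned to 0.10 and 1.08 without the 3 libraries. Without the 3 libraries 8 genes differed, 5 of them among the 30, and 4 of the 30 changed sign.

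Brown fat, which makes heat, responded otherwise. It had 1225 genes higher and 1107 lower after 1 day, and the change differed from that in epididymal fat for 1338 of 15435 genes (8.67%), more positive in epididymal fat for 715 (4.63%) and more negative for 623 (4.04%). Of the genes that rose in epididymal fat 441 of 1636 also differed from brown fat in that direction, as did 268 of 1258 that fell. Those genes were called on the same epididymal values that enter the difference. Their shares therefore cannot be set against those of all genes tested. The fatty acid and triglyceride genes had a median change of 0.88 in epididymal fat and -0.07 in brown fat, and 13 of 25 differed upwards and 1 downwards. Dgat2 rose in epididymal fat and fell in brown fat, where it averaged 1474 ± 156 CPM after 1 day, against 3090 ± 336 CPM at 0 days, a difference of 2.85 ± 0.31 (adjusted p = 1.3e-12). Fasn averaged 5703 ± 3006 CPM after 1 day, against 8083 ± 3682 CPM at 0 days in brown fat, and the difference of 2.41 ± 0.49 passed (adjusted p = 0.000185). Acss2 differed by 2.1 ± 0.27, Me1 by 1.70 ± 0.25, Ppp1r3b by 2.02 ± 0.31 and Ptger3 by 2.14 ± 0.29. Idh1 (1.33 ± 0.15), Impdh1 of guanine nucleotide synthesis (2.26 ± 0.22), Paqr7 and Gdpd5 were the other surest positive differences among genes called in epididymal fat. Of 25 sterol genes 14 rose in brown fat, with a median of 0.49 against 0.89 in epididymal fat, and 7 differed upwards, with Hmgcs1 at 0.87 ± 0.25, and 2 downwards. Npr3 rose in both, and its difference of -0.17 ± 0.34 had an adjusted p of 0.851. The surest negative differences among genes called in epididymal fat were Got1, an aminotransferase (-2.34 ± 0.28), the motor gene Kifc3, Arhgef19, Tbc1d9 and Unc119b. In each of these 5 genes 0-day replicate 1 had the lowest epididymal level of its group. It also had the lowest level for 710 of the 1258 genes that fell in epididymal fat (56.4%).

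**Figure D5:**
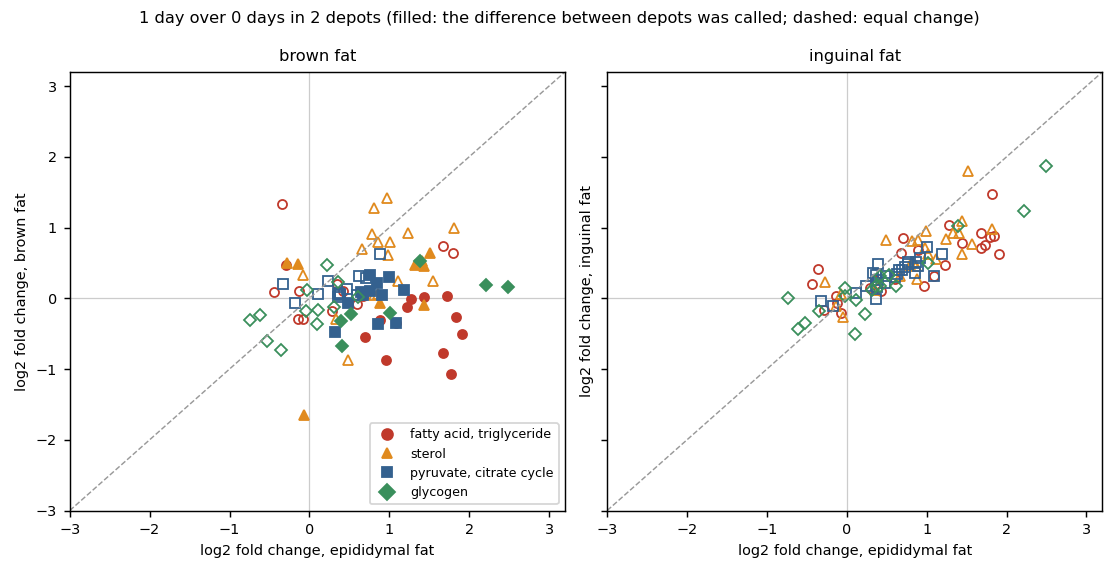
Log2 fold change of 1 day over 0 days in epididymal fat (horizontal axis) against that in brown fat (left) and inguinal fat (right) for genes of 4 lists, filled where the difference between depots was called. Most filled fatty acid genes lie near or below 0 in brown fat and above 0 in epididymal fat, and in inguinal fat 0 genes of the 4 lists are filled.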

How the data were processed

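Polyadenylated RNA of whole fat pads was sequenced from stranded libraries, per the labels' protocols. Read counts per gene were deposited by the authors in 1 table, and the submitters' processing notes name featureCounts 1.6.3, the aligner HISAT2 2.1.0, SAMtools 1.9, the trimmer Trimmomatic 0.38 and FastQC 0.11.7, with mouse builds mm10 and GRCm38. The gene annotation and the strand setting were not stated there, so antisense and overlapping genes are uncertain. Of the columns 840 belong to other organs and were not used.

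All 96 epididymal libraries were fitted in edgeR 4.0.16 (R 4.3.3) with 1 coefficient per time point, filterByExpr, TMM factors and the quasi-likelihood test, with Benjamini-Hochberg adjustment at 0.05, so that the spread was estimated from all 16 time points. Differences between depots were interaction terms in joint fits. The labels do not say which libraries of different depots share a mouse, so these fits treat all libraries as independent. Alternatives were DESeq2 1.42.0, limma 3.58.1 (voom), RLE factors, no filter, the 12 libraries alone, a replicate block, offsets for GC content and transcript length, and leaving out each library. Libraries were numbered mice, with 6 per group. The p-values rest on the spread between mice within time points, estimated over all 96 epididymal libraries, or over both depots in the joint fits. Cage was not part of any fit, so any mice that shared a cage were treated as independent. The 12 libraries were not copies, with a chi-square of at least 7.71 per degree of freedom between replicates. In simulated data for this comparison on 15225 genes, the test recovered 28 of 67 genes changed 1.5-fold, 57 of 67 changed 2-fold and 63 of 66 changed 4-fold, and 7.5% of 160 calls were false. That simulation changed few genes, none of low mean count, and drew each library independently around its group mean. It held no single library with transcripts of another organ, so these shares may not hold for the real data.

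Genes and lists were chosen with earlier results of these data known. Named genes were the 12 with the smallest p and the 6 with the largest change in each direction at 5 CPM or more, up to 6 of each list by p and a set of genes of interest. From each depot difference the 5 surest in each direction were named, among genes called in epididymal fat. Other genes named, and the lists of liver, pancreas, glycogen, NADPH and pyruvate genes, were added after values were seen. Coordinates are of GENCODE on GRCm38, matched by symbol for 20319 of 20646 genes, and promoters of RefSeq. Some genes that the rule names are not reported here.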

Additional observations from a re-analysis of the deposited data

Results flagged for a closer look

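A library lay apart from the other 5 of its group, with a gap to its nearest neighbour above Dixon's critical share of the group's range, in 76 of 446 sets of 6 levels (genes named above and summed lists). Chance flags about 1 in 20 such sets, and sets of genes that move together are not independent. In 1-day replicate 1 the high levels were those of Egr1 at 73.47 CPM, Gpx1 at 816.3 CPM, S100a9 at 2.528 CPM and mt-Nd4l at 43.85 CPM. Low levels in 1-day replicate 1 were those of Gdpd5 at 14.23 CPM. Among summed lists 1-day replicate 1 stood apart for MHC class II at 1583 CPM. In 1-day replicate 2 the high levels were those of Cs at 950.6 CPM and Ctrb1 at 156.3 CPM. Among summed lists 1-day replicate 2 stood apart for pancreas at 826.8 CPM. In 1-day replicate 3 the high levels were those of Dnah11 at 17.02 CPM, Hydin at 14.55 CPM and Unc119b at 52.1 CPM. In 1-day replicate 4 the high levels were those of Actg2 at 362.3 CPM, Akr1b7 at 4059 CPM, Bmp3 at 45.43 CPM, Crisp1 at 1605 CPM, Ldhc at 16.9 CPM, Polr3g at 9.7 CPM, Prm1 at 32.85 CPM, Ptgs2 at 329.7 CPM, Tnp1 at 18.96 CPM and Tnp2 at 35.8 CPM. Among summed lists 1-day replicate 4 stood apart for smooth muscle at 4821 CPM, skeletal muscle at 259.6 CPM, epididymis at 1919 CPM, testis at 346.8 CPM and male duct at 4431 CPM. Low levels in 1-day replicate 6 were those of Akt2 at 393.4 CPM and Pnpla3 at 258.9 CPM. Among summed lists 1-day replicate 6 stood apart for B cells at 59.03 CPM. In 0-day replicate 1 the high levels were those of Ahsg at 96.7 CPM, Alb at 1328 CPM, Apoa2 at 102.5 CPM, Ccl2 at 10.25 CPM, Cs at 598.2 CPM, Dgat2 at 1503 CPM, Egr1 at 76.45 CPM, Fos at 54.16 CPM, Gpd1 at 961 CPM, Gys2 at 8.446 CPM and Hpx at 110 CPM. The same library was also high for Idh3a at 216.3 CPM, Impdh1 at 66.52 CPM, Insig1 at 96.2 CPM, Lcn5 at 3.913 CPM, Lrrc59 at 168.1 CPM, Mup3 at 162.7 CPM, Pgd at 360.2 CPM, Pnpla3 at 308.4 CPM, Prkaca at 208.9 CPM, Ptger3 at 32.11 CPM and Ptges at 71.92 CPM. The same library was also high for Serpina1c at 97.75 CPM, Serpina1e at 136.3 CPM, Slc25a1 at 486 CPM, Slc25a10 at 358 CPM and Slc2a4 at 246 CPM. Low levels in 0-day replicate 1 were those of Dnah11 at 1.925 CPM and Tbc1d9 at 10.62 CPM. Among summed lists 0-day replicate 1 stood apart for fatty acid oxidation at 5185 CPM, lipid-associated macrophages at 21060 CPM, liver at 2647 CPM, NADPH supply at 2995 CPM and pyruvate and the citrate cycle at 8352 CPM. In 0-day replicate 2 the high levels were those of Crisp1 at 309 CPM and mt-Nd4l at 6.784 CPM. Low levels in 0-day replicate 2 were those of Thrsp at 569.4 CPM. In 0-day replicate 3 the high levels were those of Gpx3 at 3112 CPM and Prtn3 at 44.73 CPM. Among summed lists 0-day replicate 3 stood apart for mitochondrial DNA at 53970 CPM. In 0-day replicate 5 the high levels were those of Ccne1 at 4.271 CPM and Vnn1 at 19.06 CPM. In 0-day replicate 6 the high levels were those of Ldhc at 0.7892 CPM, S100a8 at 37.52 CPM and S100a9 at 69.51 CPM. Among summed lists 0-day replicate 6 stood apart for neutrophils at 178.4 CPM.

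The change over the day differed between depots, by an interaction term in edgeR's joint fit, for genes chosen as the surest such calls among genes called in epididymal fat. Against inguinal fat, log2 differences of epididymal minus inguinal change were Serpina1c (-3.52), Hydin (-4.18), Mup3 (-5.79), Klf4 (-1.25), Alb (-4.58), Adap1 (1.38), Polr3g (0.93), Bbc3 (1.18), Ccne1 (1.38) and Tm4sf5 (3.28). Against brown fat, epididymal minus brown, they were Impdh1 (2.26), Dgat2 (2.85), Idh1 (1.33), Paqr7 (2.05), Gdpd5 (2.13), Got1 (-2.34), Kifc3 (-1.41), Arhgef19 (-2.97), Tbc1d9 (-1.91) and Unc119b (-0.93).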

How the results depend on the processing

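In edgeR with all 12 libraries 2895 genes were called, and limma-voom with quality weights called 5820 (2977 higher, 2843 lower). Leaving out 1 library gave 2071 to 3368 calls, 1238 to 1786 higher and 833 to 1582 lower, fewest without 1-day replicate 2. Without 0-day replicate 1 and 1-day replicates 2 and 4, an omission chosen after seeing the data, 1789 were called, 676 of them lower. For the difference from inguinal fat that omission left 8 calls (3 more positive, 5 more negative), and the libraries of 0 and 1 day fitted alone gave 31 more positive and 7 more negative. For the difference from brown fat the libraries of 0 and 1 day alone gave 1081 more positive. The causes were not tested. Other counts over all genes stayed within 1.5 times their value. For the 197 values of single genes named, not all of which every setting could give (differences between depots were not refitted with DESeq2, limma-voom, no filter on low counts, offsets for GC content and length, or 1 library left out), 3565 recomputed values kept direction and side of the threshold, 161 lost the call, 24 gained it and 28 turned direction. Directions turned without the 3 libraries for Actg2 (-0.79), Alb (0.22), Crisp1 (-0.01), Ctrb1 (-0.58), Fos (0.62), Hpx (0.58), Lcn5 (4.22), Mup3 (1.08), Tnp1 (-0.93) and Tnp2 (-0.62), and for the differences from inguinal fat of Mup3 (1.08) and Alb (0.1). With limma-voom they turned for Fkbp5 (-0.03), Fos (0.22), Hpx (0.05), Lcn5 (2.03), Mup3 (0.59) and Tnp1 (-0.45). On leaving out 1 library they turned for some omission for Actg2 (-0.74 to 2.4), Alb (-4.69 to 0.15), Ctrb1 (-0.65 to 7.85), Fos (-0.96 to 0.45), Hpx (-6.22 to 0.41), Lcn5 (-2.04 to 3.93), Mup3 (-6.02 to 0.84), S100a8 (-2.01 to 0.67), Tnp1 (-1.17 to 3.95) and Tnp2 (-0.68 to 4.09), given as lowest and highest. Same-numbered mice of the 2 groups did not deviate together (r of -0.266 to 0.334, over 0.1 in 2 of 6 pairs, and 0 of 6 libraries correlated best with their own number), so the numbers do not pair the samples. With the replicate block 3010 genes were called. The 12 libraries of 0 and 1 day fitted alone gave 2960 calls, of which 2259 were among the 2895. A planned omission of libraries whose summed epididymal and ciliary transcripts exceeded 3 times their median gave no value, since the highest, 2148 CPM, was below the 2416 CPM set. In the smallest of the 12 libraries 1 CPM was 14.3 counts, so levels below 1 CPM rest on few reads.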

Other observations

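Other gene groups held calls too, beside 19.0% of all genes tested. Of 16 thermogenic genes 4 rose and 2 fell, and 2 rose and 1 fell without 0-day replicate 1 and 1-day replicates 2 and 4. Otop1, a proton channel expressed in fat, stood at 0.438, 0.532 and 1.47 CPM after 1 day, against 0, 0.0614 and 0.234 CPM at 0 days, without overlap (2.85 ± 0.92), whereas Gk, which phosphorylates glycerol, changed by -1.04 ± 0.33. The call of Otop1 was lost without 1-day replicate 3 and that of Gk without 0-day replicate 3. Of 22 antioxidant genes 2 rose, Sod2 of mitochondria (0.76 ± 0.18) and Prdx6 (0.93 ± 0.22), both without overlap, and 2 fell, Gpx1 (-0.77 ± 0.25) and Gpx3 (-0.87 ± 0.31), which were not called without the 3 libraries. Fabp5, a fatty acid binding protein on the list of lipid-associated macrophages that adipocytes also express, rose by 1.00 ± 0.27, and 3 of 19 genes of that list rose and 1 fell. The chemokine Cxcl12 fell without overlap (-0.71 ± 0.17). Cspg4, a pericyte gene, was the member of 17 vessel genes that rose (1.17 ± 0.32). Of 30 ribosomal protein genes edgeR called 0, with 0 at an unadjusted p under 0.05, 0 called by DESeq2 and 1 by limma-voom, and their median was -0.22.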
